A study of Mus musculus with 9 samples.

Results

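*Ifnar1*, *Ifnar2*, *Il10rb* and *Ifngr2* form a cluster of cytokine receptor genes inside the segment of mouse chromosome 16 that is duplicated in Dp1Tyb mice. They were chosen by their identity and position and not by any measured value, though earlier results of these data were known. They are 4 of the 43629 genes in the count table, 4 of its 250 genes from the duplicated region, and 4 of the 89 genes of that region with enough counts to be tested.

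Their expression was measured by RNA sequencing in 9 cultures of mouse embryonic fibroblasts (MEFs), each grown from a separate E14.5 embryo, 4 wild-type (WT) and 5 Dp1Tyb. The labels give the Dp1Tyb genotype as Dp(16Lipi-Zbtb21)1TybEmcf and the strain of both groups as C57BL/6J.129P2, and the study describes the embryos as littermates. Dp1Tyb embryos carry a second copy of the region from *Lipi* to *Zbtb21* on 1 of their chromosomes 16, so they have 3 copies of each receptor gene and WT embryos have 2. The question asked of these genes was whether their transcript levels followed the added copy, and whether genes that act with or downstream of the receptors changed with them. No interferon or other cytokine is named in the growth and treatment protocols of the labels. MEFs are a mixed population of adherent cells, here grown from embryos without head and viscera, dissociated with trypsin and passaged, and in such bulk RNA fewer cells of a type and less RNA per cell cannot be told apart.

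The 4 proteins are transmembrane chains of the class II cytokine receptor family. They have no kinase of their own, and ligand binding brings a pair of different chains together so that the Janus kinases held on their tails phosphorylate STAT transcription factors. *Ifnar1* and *Ifnar2* encode the chains of the type I interferon receptor, which signals through the kinases TYK2 and JAK1. *Ifngr2* encodes the chain that joins the ligand-binding chain IFNGR1 in the interferon-γ receptor and carries JAK2. *Il10rb* encodes a chain shared by the receptors for IL-10, IL-22 and the type III interferons, each of which adds a ligand-specific chain of its own (IL10RA, IL22RA1 or IFNLR1).

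The 4 genes lie within 192.8 kb on the plus strand of chromosome 16 (GRCm38, GENCODE M21), with no other gene of the receptor family between them. *Ifnar2* (ENSMUSG00000022971) comes first, at chr16:91372783-91405589. *Il10rb* (ENSMUSG00000022969) starts 574 bp after its end, at chr16:91406164-91425834. *Ifnar1* (ENSMUSG00000022967) is at chr16:91485238-91507441 and *Ifngr2* (ENSMUSG00000022965) at chr16:91547072-91565623. The read-through gene *Gm21970* overlaps *Ifnar2* and *Il10rb* on the same strand and shares 315 exonic bases with *Ifnar2* and 569 with *Il10rb*. *Gm21970* itself had 0 counts in every culture, and how reads in the shared bases were assigned is not given in the sources used here.

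RefSeq promoter sequences (build GRCm38.p6) were at hand for 3 of the 4 genes. The 250 bases before the transcription start are shown as a description, and whether they bear on the levels of these genes was not tested. All are on the plus strand, at chr16:91372533-91372782 for *Ifnar2*, chr16:91484965-91485214 for *Ifnar1* and chr16:91546809-91547058 for *Ifngr2*. Capitals mark GC boxes (GGGCGG) and ETS motifs (CCGGAA), searched on both strands.
Ifnar2: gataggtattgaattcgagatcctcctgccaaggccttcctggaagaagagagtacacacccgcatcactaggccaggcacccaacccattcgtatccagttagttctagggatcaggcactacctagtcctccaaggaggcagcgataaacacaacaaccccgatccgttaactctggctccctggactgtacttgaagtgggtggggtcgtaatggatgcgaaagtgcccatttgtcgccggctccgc
Ifnar1: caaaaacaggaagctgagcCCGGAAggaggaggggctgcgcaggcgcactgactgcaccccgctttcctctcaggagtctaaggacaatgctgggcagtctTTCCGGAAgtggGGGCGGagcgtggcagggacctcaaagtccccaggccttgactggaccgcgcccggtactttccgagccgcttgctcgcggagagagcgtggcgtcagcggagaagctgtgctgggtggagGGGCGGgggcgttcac
Ifngr2: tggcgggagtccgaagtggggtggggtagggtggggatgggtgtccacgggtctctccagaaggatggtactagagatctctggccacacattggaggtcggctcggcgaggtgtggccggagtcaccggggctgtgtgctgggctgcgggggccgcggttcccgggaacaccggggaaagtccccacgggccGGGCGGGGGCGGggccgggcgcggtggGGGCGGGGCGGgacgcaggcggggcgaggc

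The *Ifnar2* sequence held no GC box and no ETS motif, with a GC content of 54.0% and 11 CpG dinucleotides. The *Ifnar1* sequence had a GC content of 65.6%, 19 CpG dinucleotides, 2 GC boxes and 3 ETS motifs, of which 2 overlap on opposite strands. The *Ifngr2* sequence was the most GC-rich, with 74.0%, 25 CpG dinucleotides and 4 GC boxes that lie in 2 runs, the boxes of the second run sharing a base. Over all 32841 promoter sequences of the same length the median GC content was 52.4% and the median number of CpG dinucleotides was 6.0. A GC box was found in 32.7% of them, 4 or more in 4.09%, and an ETS motif in 12%. Motifs linked to the response to interferons were searched as well. TTCNNNGAA, the letters bound by STAT dimers, occurred once in the *Ifnar2* sequence, at -214 from the start, and in 7.02% of all promoters. The core of the interferon-stimulated response element (ISRE) was found in none of the 3 sequences and in 2.98% of all promoters. TATAAA was in none of the 3 and in 12.4% of all, and CCAAT was in the *Ifngr2* sequence and in 33.9% of all. These matches describe letters only.

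Total counts lay between 24804539 and 30009361 per culture, and 14567 genes passed the filter on low counts. All 10 fibroblast markers were tested, with a summed level between 46656 and 61747 CPM (counts scaled by library size) in WT and between 39610 and 66065 CPM in Dp1Tyb cultures. The summed level of 6 Schwann cell and neural crest markers did not overlap between the genotypes, with 30.7 to 66.0 CPM in WT and 9.63 to 29.8 CPM in Dp1Tyb cultures, none of the 6 being at the floor of 3 counts in every culture. Tested singly in edgeR, 0 of 5 had an adjusted p below 0.05. Of these 5, 4 were lower in Dp1Tyb with an unadjusted p below 0.05, and 1 had an estimate above 0. Among all tested genes, 0.611% had groups that do not overlap with Dp1Tyb lower. The 12 macrophage markers summed to between 77.9 and 296 CPM in WT and between 19.8 and 436 CPM in Dp1Tyb cultures. In edgeR all 12 had an estimate above 0 (higher in Dp1Tyb), with a median log2 fold change of 0.34. Of these 12, 0 had an unadjusted p below 0.05. Of 6 skeletal muscle markers, *Myod1*, *Myog*, *Myf5*, *Pax7* and *Ckm* were at the floor, and the sum was highest in Dp1Tyb replicate 2 (215 CPM). The labels carry a prefix number of unstated meaning that is 1 for WT replicate 1 and Dp1Tyb replicate 1, and 2 for the other 7 cultures. What part these differences have in the results was not tested, and the comparisons of the receptor genes with WT, with the region and with each other are also given within prefix 2. Values within prefix 2 were not computed for the gene lists.

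All 4 receptor genes were higher in Dp1Tyb than in WT MEFs, by between 1.52-fold (*Il10rb*) and 1.82-fold (*Ifnar1*). For each of them the lowest Dp1Tyb culture was above the highest WT culture. Tested by quasi-likelihood in edgeR, with Benjamini-Hochberg adjustment over 14567 genes, all 4 were called as differentially expressed genes (DEGs, adjusted p below 0.05), among 24 genes (0.165%) in all, and 2 genes outside the duplicated region were called (0.0138%). Within the duplicated region 22 of the 89 tested genes were called (24.7%), and without the receptor genes 18 of 85 (21.2%). Groups that do not overlap, with Dp1Tyb higher, were found for 0.714% of all tested genes and for 51.7% of those in the duplicated region.

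*Ifnar1* had 2386, 1817, 1921 and 2296 normalised counts in WT replicates 1 to 4 and 3909, 3576, 3946, 3876 and 3971 in Dp1Tyb replicates 1 to 5. The means were 2105 ± 278 (SD, n = 4) and 3856 ± 160 (SD, n = 5). The lowest Dp1Tyb culture, replicate 2, was 1.5 times the highest WT culture, replicate 1. *Ifnar1* rose by a log2 fold change of 0.86 (SE 0.094), a fold of 1.82 with a 95% interval of 1.57 to 2.11 (edgeR, adjusted p = 0.0102). An exact permutation test of log2 normalised counts, two-sided, gave p = 0.00794, the smallest that groups of 4 and 5 cultures allow, and it gave the same p for each of the other 3 genes.

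*Ifnar2* had 662, 599, 717 and 708 normalised counts in the WT cultures and 1012, 936, 1082, 1159.5 and 1183 in the Dp1Tyb cultures. As for *Ifnar1*, replicate 2 was the lowest Dp1Tyb culture, and it was still 1.31 times the highest WT culture. The means were 671 ± 54.2 (SD, n = 4) and 1075 ± 103 (SD, n = 5). *Ifnar2* rose by a log2 fold change of 0.67 (SE 0.091), a fold of 1.59 with a 95% interval of 1.38 to 1.83 (edgeR, adjusted p = 0.0263).

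*Ifngr2* had 2068, 2229.7, 2230.3 and 2387 normalised counts in the WT cultures and 3270.2, 3979.8, 3585, 3563 and 3606 in the Dp1Tyb cultures. Here replicate 2 was the highest of the Dp1Tyb cultures and replicate 1 the lowest, at 1.37 times the highest WT culture. The means were 2229 ± 130 (SD, n = 4) and 3601 ± 252 (SD, n = 5). *Ifngr2* rose by a log2 fold change of 0.68 (SE 0.071), a fold of 1.61 with a 95% interval of 1.44 to 1.79 (edgeR, adjusted p = 0.0102).

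*Il10rb* was the lowest of the 4 in counts, with 405, 465, 386 and 440.2 normalised counts in the WT cultures and 636, 689, 634, 609 and 665 in the Dp1Tyb cultures. Replicate 2 was again the highest Dp1Tyb culture, and it was the highest WT culture as well. The means were 424 ± 35.2 (SD, n = 4) and 646 ± 30.9 (SD, n = 5). *Il10rb* rose by a log2 fold change of 0.60 (SE 0.077), a fold of 1.52 with a 95% interval of 1.35 to 1.71 (edgeR, adjusted p = 0.0183).

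**Figure D1:**
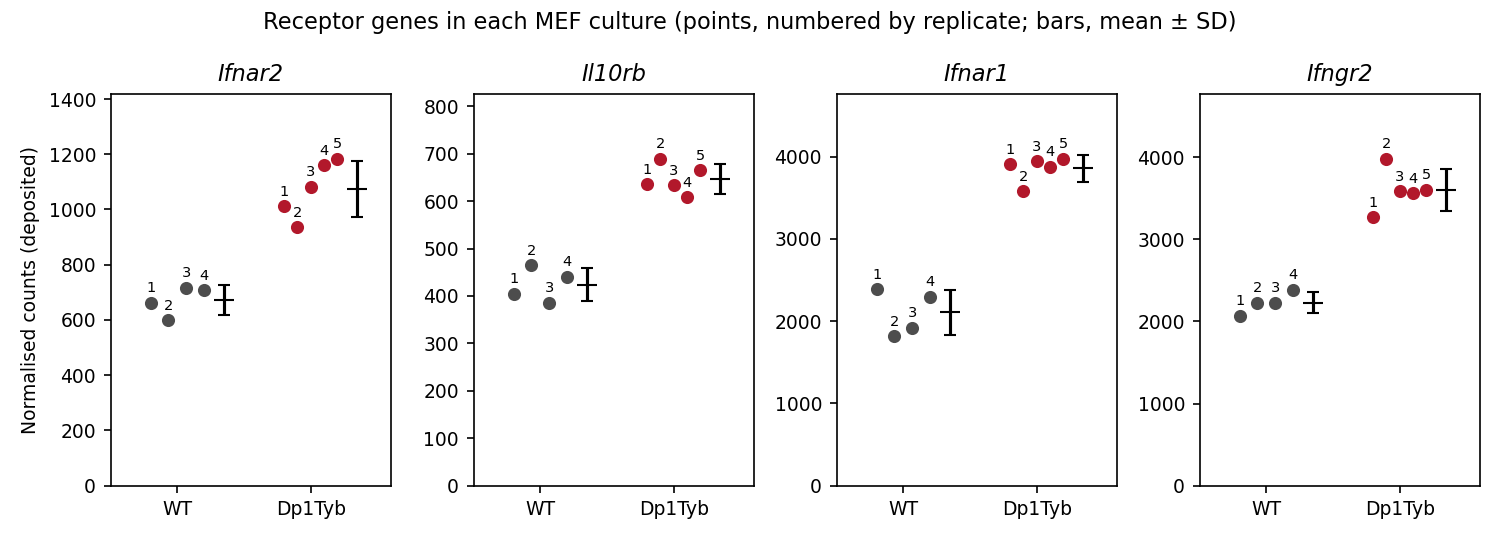
Normalised counts (y axis, linear from 0, one scale per gene) of the 4 receptor genes in each MEF culture, in chromosomal order of the genes. Points are cultures numbered by replicate (4 WT in grey, 5 Dp1Tyb in red) and bars are mean ± SD; in every panel all Dp1Tyb points lie above all WT points.

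Leaving out a culture changed the size of the increase little, but ended several of the calls. The log2 fold change stayed between 0.80 and 0.94 for *Ifnar1*, 0.62 and 0.72 for *Ifnar2*, 0.56 and 0.64 for *Il10rb* and 0.65 and 0.72 for *Ifngr2*. By edgeR's adjusted p, *Ifnar1* missed the threshold without Dp1Tyb replicate 5 (0.0503), WT replicate 2 (0.0603) or WT replicate 3 (0.0678). *Ifngr2* missed it without the same cultures (0.0503, 0.0632 and 0.0678). *Ifnar2* and *Il10rb* kept the call only without Dp1Tyb replicate 2 (0.0172 and 0.0291), and their adjusted p reached 0.0994 without WT replicate 2 for *Ifnar2* and 0.0977 without WT replicate 3 for *Il10rb*. Within prefix 2 (3 WT and 4 Dp1Tyb cultures) the log2 differences of normalised counts were 0.94, 0.69, 0.60 and 0.69 for *Ifnar1*, *Ifnar2*, *Il10rb* and *Ifngr2*, each with an exact permutation p = 0.0286, two-sided, the smallest that 35 relabelings allow. There edgeR called none of the 4, with adjusted p-values of 0.0584, 0.194, 0.165 and 0.0584, and only 1 of all 14575 genes tested. With all 9 cultures and the prefix number as a covariate edgeR called all 4, among 24 of 14567 genes. Their adjusted p-values were 0.0133, 0.0412, 0.0253 and 0.00756. In the single pair of cultures with prefix 1 the log2 differences were 0.71, 0.61, 0.65 and 0.66. DESeq2 called all 4, with adjusted p-values between 3.85e-14 (*Ifngr2*) and 1.15e-07 (*Ifnar2*), beside 0.418% of all genes with an adjusted p and 39.4% of those in the duplicated region.

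The receptor genes were then set against the rest of the duplicated region. The median log2 fold change was 0.0027 over all 14567 tested genes and 0.57 over the 85 other tested genes of the region, with quartiles of 0.45 and 0.67, and a fold of 1.5 is 0.58 on this scale. By log2 fold change *Ifnar1* ranked 9, *Ifngr2* 22, *Ifnar2* 26 and *Il10rb* 40 among the 89 tested genes of the region. For a test, the log2 normalised count of each receptor gene relative to its WT mean was taken in each culture. The median of the same quantity over the 85 other genes was then subtracted. *Ifnar1* exceeded the other genes by 0.33 more in Dp1Tyb than in WT cultures, with a WT mean of -0.0057 ± 0.168 (SD, n = 4) and a Dp1Tyb mean of 0.33 ± 0.0501 (SD, n = 5). By an exact permutation test, two-sided, p was 0.00794, or 0.0317 after Benjamini-Hochberg adjustment for the 4 genes. The WT cultures ranged from -0.19 to 0.18 and the Dp1Tyb cultures from 0.26 to 0.37, with no overlap. Within prefix 2 the excess was 0.38 (exact permutation test, two-sided, p = 0.0286, unadjusted), and in the pair of prefix 1 it was 0.19.

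The other 3 receptor genes did not pass this test after adjustment. The difference from the other genes of the region was 0.14 for *Ifngr2* (exact permutation p = 0.0397, adjusted 0.0794), 0.13 for *Ifnar2* (p = 0.127, adjusted 0.169) and 0.061 for *Il10rb* (p = 0.381, adjusted 0.381). All 3 lay above 0, and in each of them WT and Dp1Tyb cultures overlapped. Within prefix 2 the differences were 0.13 (p = 0.0571), 0.13 (p = 0.2) and 0.039 (p = 0.686) in the same order (exact permutation tests, two-sided). Taken one at a time in the same way, 3 of the 85 other genes of the region (3.53%) were higher than the rest with an unadjusted p below 0.05, and 2 (2.35%) were lower.

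The genes next to the cluster lie in the duplication too. On the centromeric side is *Olig1*, which encodes a transcription factor of the oligodendrocyte lineage and had between 2 and 15 counts. Its neighbour *Olig2* had at most 4 counts and was not tested. On the other side, *Cryzl1*, which encodes a protein like quinone oxidoreductases, rose by 0.93 on the log2 scale (SE 0.069, edgeR adjusted p = 0.0021), and *Son*, which encodes a splicing factor, by 0.69 (SE 0.10, adjusted p = 0.0395). In all, edgeR called 2 of 9 tested flanking genes, and DESeq2 called 5 of the 10 with a p-value. By edgeR 7 of the 9 were higher in Dp1Tyb with an unadjusted p below 0.05, as were all 4 receptor genes, beside 3.13% of all tested genes in either direction. Over the duplicated region the shares called were 24.7% by edgeR and 39.4% by DESeq2. The other tested neighbours had log2 fold changes of 0.79 (*Gart*, an enzyme of purine synthesis), 0.59 (*Atp5o*, a subunit of ATP synthase), 0.55 (*Donson*, a replication factor), 0.53 (*Tmem50b*), 0.52 (*Itsn1*, an endocytic scaffold), 0.27 (*Dnajc28*) and -0.66 (*Olig1*). The median of the 9 flanking genes was 0.55, beside 0.68 for the 4 receptor genes.

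**Figure D2:**
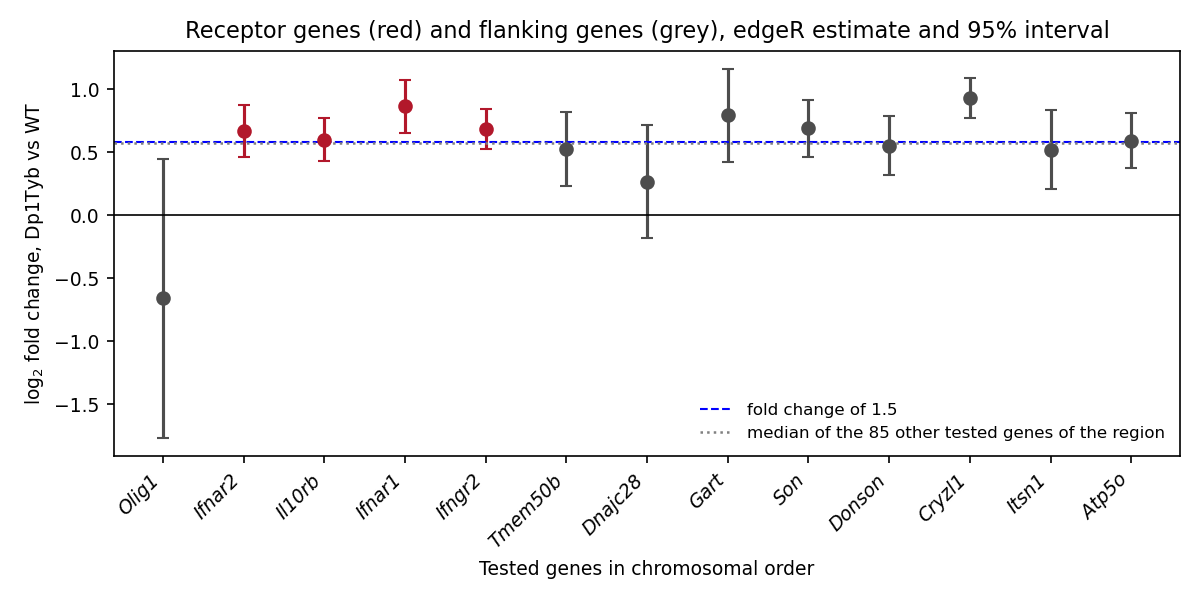
Log2 fold change of Dp1Tyb vs WT (y axis, edgeR estimate with its 95% interval) for the 4 receptor genes in red and the 9 tested flanking genes in grey, in chromosomal order without scale (x axis). The dashed line is a fold of 1.5 and the dotted line the median of the 85 other genes of the region (0.57); the *Ifnar1* and *Cryzl1* intervals lie above both lines and the intervals of *Ifnar2*, *Il10rb* and *Ifngr2* contain them.

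Levels of different genes were compared per length, as RPKM, the count divided by the exon length of the gene and the total count of the culture. *Ifngr2* was the highest, with 23.0 ± 0.793 RPKM (SD, n = 4) in the WT and 35.8 ± 1.75 RPKM (SD, n = 5) in the Dp1Tyb cultures. *Ifnar1* followed with 13.8 ± 2.21 and 24.4 ± 1.46 RPKM, then *Ifnar2* with 7.84 ± 0.714 and 12.1 ± 1.17 RPKM, and *Il10rb* with 4.32 ± 0.282 and 6.36 ± 0.290 RPKM. The order was the same in all 9 cultures when all exons of a gene were counted in its length. With the longest transcript as the length, *Ifnar1* came before *Ifngr2* in 5 of the 9 cultures, so the order of these genes depends on the transcript model. Under both lengths *Ifnar2* followed these genes and *Il10rb* was the lowest.

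Whether the chains of a receptor changed relative to each other was asked with ratios taken within a culture, which need no scaling between cultures. For the type I interferon receptor, the ratio of *Ifnar1* to *Ifnar2* counts was 3.61, 3.03, 2.68 and 3.24 in the WT cultures and 3.86, 3.82, 3.65, 3.34 and 3.36 in the Dp1Tyb cultures. The ratio was 1.15 times as high in Dp1Tyb as in WT cultures, and the groups overlapped, since WT replicate 1 lay above 2 of the Dp1Tyb cultures (exact permutation test, two-sided, p = 0.0556, adjusted over 6 pairs 0.167). Within prefix 2 the groups did not overlap (log2 difference 0.25, exact permutation p = 0.0286, two-sided), and in the pair of prefix 1 the log2 difference was 0.099. Without WT replicate 1 the log2 difference was 0.27 (exact permutation p = 0.0357, two-sided, unadjusted). With any other single culture left out, this p lay between 0.0571 and 0.143.

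None of the other 5 pairs of receptor genes passed the test either. The ratio of *Ifnar1* to *Il10rb* was 1.21 times as high in Dp1Tyb cultures (p = 0.0556) and that of *Ifnar1* to *Ifngr2* 1.14 times (p = 0.167), by exact permutation tests, two-sided. Without WT replicate 1, WT replicate 4 or Dp1Tyb replicate 2 the unadjusted p for *Ifnar1* to *Il10rb* was 0.0357, 0.0357 and 0.0286 (exact permutation tests), with log2 differences of 0.36, 0.30 and 0.32. The changes were smaller among the other 3 genes, at 1.05 for *Ifnar2* to *Il10rb* (p = 0.619), 0.990 for *Ifnar2* to *Ifngr2* (p = 0.905) and 0.946 for *Il10rb* to *Ifngr2* (p = 0.222, exact permutation tests). Within prefix 2 the log2 differences were 0.34 for *Ifnar1* to *Il10rb* and 0.25 for *Ifnar1* to *Ifngr2* (exact permutation p = 0.0857 for both, two-sided), and 0.096, 0.0019 and -0.094 for the other 3 pairs.

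*Ifngr2* has its partner chain outside the duplication. *Ifngr1*, on chromosome 10, encodes the ligand-binding chain of the interferon-γ receptor and had 967, 1085, 1174 and 1181 normalised counts in the WT cultures and 1008, 1293, 1292, 1239 and 1296 in the Dp1Tyb cultures. The groups overlapped, and its log2 fold change of 0.15 (SE 0.093) did not pass the test (edgeR adjusted p = 0.9997, unadjusted p = 0.149). Per length, the ratio of *Ifngr2* to *Ifngr1* was 1.62, 1.55, 1.44 and 1.53 in the WT cultures and 2.45, 2.33, 2.10, 2.17 and 2.10 in the Dp1Tyb cultures. The genotypes did not overlap, and the mean ratio rose from 1.53 ± 0.0750 (SD, n = 4) to 2.23 ± 0.154 (SD, n = 5). The ratio was 1.45 times as high in Dp1Tyb cultures (exact permutation test, two-sided, p = 0.00794, adjusted over 3 pairs of partners 0.0238). This is a log2 difference of 0.54, near the median log2 fold change of 0.57 over the 85 other tested genes of the region. By normalised counts, groups that do not overlap, with Dp1Tyb higher, were found for 51.7% of the tested genes of the region. The log2 difference of the ratio was 0.53 within prefix 2 (exact permutation p = 0.0286, two-sided) and 0.60 in the pair of prefix 1.

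**Figure D3:**
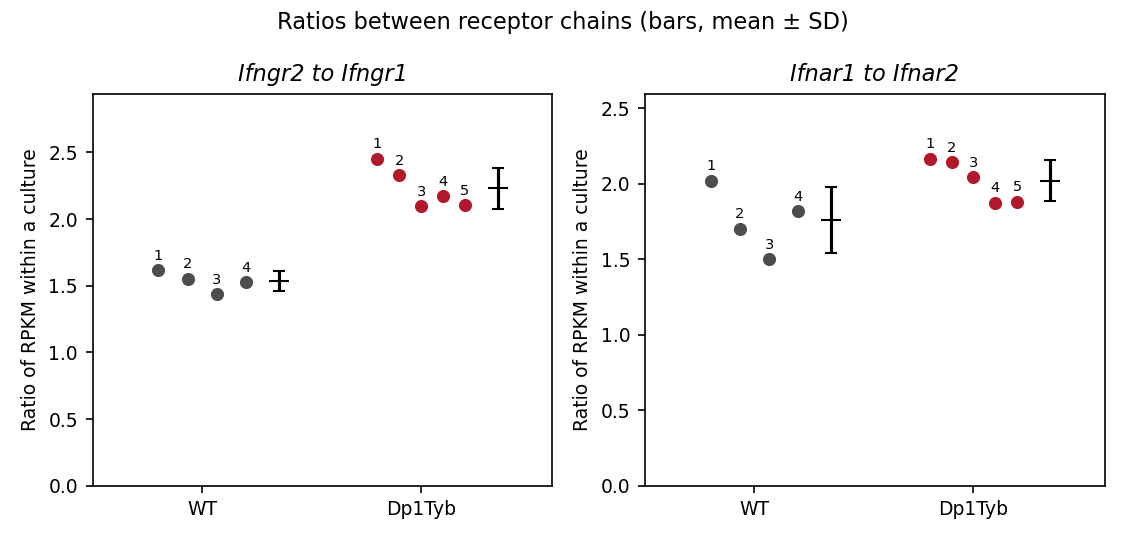
Ratio of RPKM values within each culture (y axis, linear from 0) for *Ifngr2* to *Ifngr1*, whose partner chain is outside the duplication, and for *Ifnar1* to *Ifnar2*, both inside it. Points are cultures numbered by replicate and bars are mean ± SD; the genotypes are apart for *Ifngr2* to *Ifngr1* (1.44 to 1.62 in WT, 2.10 to 2.45 in Dp1Tyb) and overlap for *Ifnar1* to *Ifnar2*.

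The ligand-specific partners of *Il10rb* were scarce. *Il10ra*, the chain that binds IL-10, had 25, 7, 8 and 49 counts in the WT cultures and 2, 1, 72, 32 and 53 in the Dp1Tyb cultures. The cultures with the fewest *Il10ra* counts, Dp1Tyb replicates 1 and 2, also had the lowest summed level of macrophage markers (27.1 and 19.8 CPM), and Dp1Tyb replicate 3 had the most of both (436 CPM). *Ifnlr1*, the chain specific to type III interferons, had between 17 and 47 counts, and *Il22ra1*, the chain specific to IL-22, at most 2. Neither the ratio of *Il10rb* to *Il10ra* (exact permutation p = 0.524, two-sided) nor that to *Ifnlr1* (p = 0.548) differed beyond the spread between cultures. The log2 differences of these ratios were 0.95 and 0.25, and within prefix 2 they were 0.13 and 0.44.

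Over the receptor family outside the duplication, 6 of 8 chains were tested and edgeR called 0, with 0 at an unadjusted p below 0.05 and 0 called by DESeq2. Their median log2 fold change was 0.20. The most abundant was *F3*, which encodes tissue factor, the starter of blood coagulation, with 5107 ± 473 (SD, n = 4) and 4627 ± 553 (SD, n = 5) normalised counts. *Il20ra*, a chain of receptors for cytokines of the IL-20 group, had between 36 and 75 counts and a log2 fold change of 0.25 (SE 0.27).

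Of 27 genes for ligands of these receptors, none had enough counts to be tested. Only *Ifnz*, a type I interferon gene of rodents, and *Il10* had more than 3 counts in any culture, with at most 4 and 5. Interferon-β, the interferon-α genes, interferon-γ and the type III interferons were all at or under this floor, so a difference in ligand transcripts was not detectable at this depth.

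None of the genes for the kinases and STATs that the receptors use passed the test. Of 11 genes 10 were tested, and edgeR called 0, with 0 at an unadjusted p below 0.05 and 0 called by DESeq2. Their log2 fold changes lay between -0.20 and 0.032, with a median of -0.047. *Jak1*, the kinase used by all of these receptors, had 8767 ± 279 (SD, n = 4) and 8404 ± 632 (SD, n = 5) normalised counts. *Stat3*, the main STAT of IL-10 signalling, had 10215 ± 1089 and 10499 ± 546. *Stat2*, a subunit of the factor that type I interferons activate, varied more, from 1683 to 2920 normalised counts in WT and from 798 to 3221 in Dp1Tyb cultures. *Stat5a* and *Stat5b* had log2 fold changes of -0.20 (SE 0.11) and -0.13 (SE 0.11).

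All 16 inhibitors of receptor signalling and genes of receptor turnover were tested, and edgeR and DESeq2 each called 0, with 0 at an unadjusted p below 0.05 in either. The median log2 fold change was -0.048. *Socs3*, an inhibitor induced by STAT3, had 1959 ± 369 (SD, n = 4) and 1552 ± 385 (SD, n = 5) normalised counts and *Socs2* 559 ± 465 and 376 ± 156. *Ptpn11*, which encodes the phosphatase SHP2, and *Csnk1a1*, a kinase that marks IFNAR1 for degradation, had log2 fold changes of 0.093 (SE 0.10) and 0.024 (SE 0.069).

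Targets of type I interferon all passed the filter on low counts, though some had no more than 3 counts in 1 or more cultures. edgeR tested 40 of 40 and called 0, with 0 at an unadjusted p below 0.05, and DESeq2 called 0, with *Isg20* and *Mx2* under an unadjusted p of 0.05. The median log2 fold change was 0.089, beside 0.0027 over all tested genes. *Mx2*, an antiviral GTPase gene that is itself in the duplication, had the largest estimate, 1.15 (SE 0.59), with 50.5 to 133 normalised counts in WT and 27.0 to 346 in Dp1Tyb cultures. *Isg20*, an antiviral exonuclease gene, had an estimate of 0.41 (SE 0.18) and an unadjusted p of 0.0516 by edgeR (adjusted p = 0.9997). *Lgals3bp*, *Ifi27* and *Trim25* were the most abundant targets, with estimates of 0.36 (SE 0.30), 0.095 (SE 0.22) and -0.028 (SE 0.20).

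The summed level of the 38 type I targets outside the duplication was 1209.9, 765, 1214 and 990.1 CPM in the WT cultures and 1067, 456, 1473, 1127 and 1359 CPM in the Dp1Tyb cultures. The genotypes overlapped, and replicate 2 was the lowest culture of each group. Dp1Tyb replicate 2 also had the lowest *Stat2* value (798 normalised counts) and the fewest macrophage markers (19.8 CPM), and WT replicate 2 had the lowest of both among WT cultures (1683 normalised counts and 77.9 CPM). What part macrophages have in these sums was not tested. The *Ifnar1* and *Ifnar2* levels of Dp1Tyb replicate 2 were the lowest of their group, and above every WT culture.

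Targets of interferon-γ gave 28 tested genes of 36 in the table, of which edgeR called 0, with 0 at an unadjusted p below 0.05, and DESeq2 called 0. Their median log2 fold change was -0.069. The genes for the light and heavy chains of MHC class I were abundant. *B2m* had 17368 ± 1699 (SD, n = 4) and 16539 ± 1934 (SD, n = 5) normalised counts, *H2-D1* 4407 ± 639 and 4061 ± 746, and *H2-K1* 2795 ± 459 and 2550 ± 647. *Tap2*, a peptide transporter gene, had a log2 fold change of -0.32 (SE 0.18), and *Cxcl9*, a chemokine gene with 4 to 26 counts, 1.01 (SE 0.53).

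**Figure D4:**
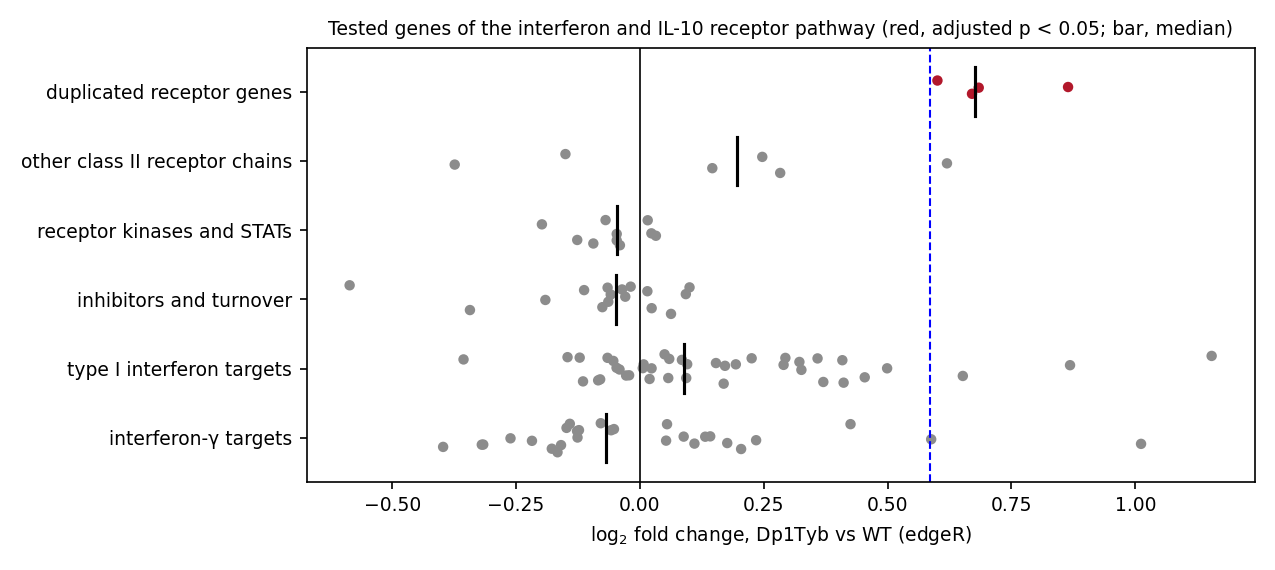
Log2 fold change of Dp1Tyb vs WT (x axis, edgeR) for each tested gene of 6 lists (y axis; points are spread vertically within a list for legibility). Red points have an adjusted p below 0.05, black bars are list medians and the dashed line is a fold of 1.5; only the 4 duplicated receptor genes are red.

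Over the lists of other receptor chains, kinases and STATs, inhibitors and targets, 100 different genes were tested and edgeR called 0, with 0 at an unadjusted p below 0.05 where 3.13% of all tested genes were. Their median log2 fold change was 0.011. At this depth and number of cultures, changes within the intervals of the single genes, such as 0.15 ± 0.093 (SE) for *Ifngr1*, could not be told from 0.

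The duplicated region holds 89 of the 14567 tested genes. The 3 genes whose log2 CPM was most like that of each receptor gene over the 9 cultures lay in it. Of the 50 most alike, 34 lay in it for *Ifnar1*, 29 for *Ifnar2*, 33 for *Il10rb* and 32 for *Ifngr2*. For *Ifnar1* the 3 genes were *Gabpa* (Pearson's r = 0.98), *Dyrk1a* (0.98) and *Son* (0.97), and for *Ifnar2* *Donson* (0.99), *Setd4* (0.97) and *App* (0.97). For *Il10rb* they were *Usp16*, *Psmg1* and *Usp25*, each with r = 0.97, and for *Ifngr2* *Morc3* (0.99), *Usp16* (0.98) and *Cryzl1* (0.98). These points share the genotype step, and the 4 receptor genes correlated with each other at between 0.86 (*Ifnar2* and *Il10rb*) and 0.97 (*Il10rb* and *Ifngr2*) over the 9 cultures. With the genotype means removed, the correlations between them lay between -0.61 (*Ifnar2* and *Il10rb*) and 0.47 (*Ifnar1* and *Ifnar2*), and whether any of these differs from 0 was not tested. The genes nearest to each of them by this measure lay outside the region, as do 14478 of the 14567 tested genes. They were *Sbf2* for *Ifnar1* (0.99), *Map4k1* for *Ifnar2* (0.98), *Mrps22* for *Il10rb* (0.95) and *Sfr1* for *Ifngr2* (0.97). These correlations are descriptions over 9 cultures, chosen as the highest of 14567 genes.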

How the data were processed

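The authors trimmed reads with Trim Galore, aligned them to GRCm38 with TopHat 2.0.12, discarded reads with several alignments and counted the rest per Ensembl gene with htseq-count. The strand setting and annotation release are not given in the sources used here. The deposited counts are raw. The deposited normalised values, a signal per gene, are those counts divided by 1 DESeq2 size factor per culture (checked, largest spread of the ratio 1.2e-09). A deposited table of the authors' own DESeq2 comparison holds fold changes and p-values and was not used.

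Counts of 4 WT and 5 Dp1Tyb cultures, grouped by their labels, were tested with edgeR 4.0.16 in R 4.3.3 (TMM, filterByExpr, quasi-likelihood, no covariate, Benjamini-Hochberg, adjusted p below 0.05), after a test on simulated data. DESeq2 1.42.0 was an alternative. Other alternatives were other scalings, filters and thresholds, the prefix number, the replicate number as a block, gene lengths, and leaving out each culture. Single values per culture were compared by exact permutation tests, two-sided. Log2 CPM used a prior count of 2, and RPKM the exon union of GENCODE M21, which matched 42462 of 43629 genes. A gene with no more than 3 counts was taken as at the floor, which covers counting error only. Python 3.11.15 was used.

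The receptor genes, gene lists and markers were chosen with earlier results of these data known. Named genes are the receptor genes, their flanking genes, from each list the 3 most abundant tested genes and the 2 with the smallest p, ligands over the floor, and the genes with the highest correlations. 2 genes of the interferon-γ list (*Gbp5*, *Gbp6*) were not matched. P-values measure the spread between cultures of separate embryos.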

Additional observations from a re-analysis of the deposited data

Results flagged for a closer look

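In each group, the culture at either end was compared with its neighbour by Dixon's test, over 52 groups of the values named above, and 5 groups held a culture that stood apart, where chance gives about 1 in 20. Dp1Tyb replicate 2 was low for *Ifnar1*, with 3576 normalised counts beside 3876 to 3971 in the other Dp1Tyb cultures. It was also low for the ratio of *Ifnar2* to *Ifngr2*, with a log2 ratio of -2.09 where the next culture had -1.73. For the flanking gene *Tmem50b*, replicate 2 was high in both genotypes, with 739 normalised counts in WT and 1211 in Dp1Tyb, beside at most 604 and 877 in the other cultures. WT replicate 1 was high for *Itsn1*, with 4778 normalised counts beside at most 3684.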

How the results depend on the processing

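The number of receptor genes called was 4 by DESeq2 and under other scalings and filters, 4 with the prefix number as a covariate, 0 within prefix 2, 0 at an adjusted p below 0.01 and 0 to 4 with a culture left out. Leaving out a culture moved the number of genes called over the whole table from 24 to between 2 and 26, lowest without WT replicate 2 or 3. Within prefix 2 this number was 1, and with the prefix number as a covariate it was 24. Against the other genes of the region the log2 excess of *Ifnar1* ranged, with a culture left out, from 0.27 to 0.39. Its unadjusted exact permutation p was between 0.0179 and 0.0286, beside 0.00794 (adjusted 0.0317) with all cultures. Adjustment over the 4 genes was not repeated there, so these fits do not show that *Ifnar1* passes it. The excess ranged from 0.080 to 0.17 for *Ifnar2*, 0.028 to 0.11 for *Il10rb* and 0.095 to 0.17 for *Ifngr2*. Only without Dp1Tyb replicate 1 did *Ifngr2* keep an unadjusted p below 0.05. With the mean of the other genes in place of their median, *Ifnar2* had 0.17 (exact permutation p = 0.0476, unadjusted) and *Ifngr2* 0.18 (exact permutation p = 0.0714, unadjusted). Within prefix 2 *Ifngr2* had 0.13 against the median (exact permutation p = 0.0571, unadjusted). With only protein-coding genes above 10 CPM as the other genes, *Ifnar1* had 0.31 (exact permutation p = 0.0159, unadjusted). In that setting *Ifngr2* had 0.11 (exact permutation p = 0.0397, unadjusted). There *Ifnar2* had 0.10 (exact permutation p = 0.254) and *Il10rb* 0.035 (exact permutation p = 0.540). The log2 differences of the ratios ranged, with a culture left out, from 0.13 to 0.27 (*Ifnar1* to *Ifnar2*, 0.25 within prefix 2), 0.16 to 0.36 (*Ifnar1* to *Il10rb*), 0.12 to 0.29 (*Ifnar1* to *Ifngr2*), -0.033 to 0.14 (*Ifnar2* to *Il10rb*, lowest without WT replicate 2), -0.069 to 0.071 (*Ifnar2* to *Ifngr2*), -0.12 to -0.036 (*Il10rb* to *Ifngr2*), 0.50 to 0.56 (*Ifngr2* to *Ifngr1*), 0.047 to 1.59 (*Il10rb* to *Il10ra*) and 0.047 to 0.52 (*Il10rb* to *Ifnlr1*). The *Ifnar2* to *Ifngr2* difference changed sign, to 0.0019 within prefix 2, 0.016 without WT replicate 1, 0.018 without WT replicate 3 and 0.071 without Dp1Tyb replicate 2. Flanking genes called numbered 5 by DESeq2, 1 with no filter on low counts and 1 to 3 with a culture left out. The other lists gave 0 with DESeq2, with no filter and with each culture left out. The cause of these shifts was not tested.

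The replicate numbers do not pair the cultures by the labels. Deviations of same-numbered cultures from their genotype means correlated at 0.26, 0.74, 0.031 and 0.38 for replicates 1 to 4. With the replicate block, edgeR called 0 of the 4 receptor genes (log2 fold changes 0.86, 0.63, 0.59 and 0.68 for *Ifnar1*, *Ifnar2*, *Il10rb* and *Ifngr2*), 0 flanking genes and 0 genes in all, and DESeq2 with the block, an alternative chosen after seeing the data, called all 4 receptor genes (adjusted p at most 0.000186), 6 flanking genes and 95 genes in all. Over the 4 pairs the excess over the region was 0.33 for *Ifnar1* and 0.15 for *Ifngr2*, and the *Ifngr2* to *Ifngr1* difference was 0.56, each with p = 0.125, the smallest that 16 sign changes allow (exact permutation test). The length without exons shared with *Gm21970*, also chosen after seeing the data, moves RPKM levels of *Ifnar2* and *Il10rb* only.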
